A study of Bos taurus with 6 samples.

Results

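The 10 genes described here encode the kinases and phosphatases that switch a cell into mitosis. They were chosen by name, as the entries called CDK1, AURKA, PLK1, PLK4, NEK2, WEE1, PKMYT1, CDC25A, CDC25B and CDC25C, and each name matched 1 of the 32183 genes listed for every culture. Expression was measured by RNA-seq in rumen epithelial primary cells (REPC), which were grown from the rumen wall of a single 2-week-old Holstein bull calf fed milk replacer only. Of the 6 cultures, 3 were exposed for 24 h to butyrate at 5 mM and 3 were controls, for which the labels give no vehicle. Butyrate is a short-chain fatty acid of rumen fermentation and an inhibitor of histone deacetylases. Because every culture came from 1 calf, the tests measure the spread between cultures and not between animals. In RNA from whole cultures, a lower share of dividing cells and less RNA per dividing cell cannot be told apart.

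Entry into mitosis is driven by cyclin-dependent kinase 1 bound to a B-type or A-type cyclin. WEE1 in the nucleus and its membrane-bound relative PKMYT1 (also called MYT1) hold the kinase off by phosphorylating neighbouring residues in its ATP-binding loop, and the CDC25 phosphatases remove those phosphates. Aurora A and PLK1 push the switch further, since Aurora A activates PLK1, and PLK1 activates CDC25C and marks WEE1 for destruction. PLK4 starts the duplication of centrioles, and NEK2 parts the duplicated centrosomes before the spindle forms. Transcripts of most of these genes rise toward G2 and mitosis in dividing cells and are low in cells that have left the cycle.

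The deposited values are FPKM, read fragments scaled to transcript length and library size, so that levels of different genes can be set side by side. They summed to between 678035 and 681912 in the control cultures and to between 619401 and 629037 after butyrate. The correlation of log2(FPKM + 0.1) across the 15813 tested genes lay between 0.9734 and 0.9774 within groups and between 0.9025 and 0.9116 across them, a description over genes that share libraries. Of 12 epithelial markers 9 were higher after butyrate and 1 was lower by the test defined below, and their summed FPKM was 2460 to 2570 in control and 5120 to 5210 after butyrate. Of all tested genes 32.5% were higher and 25.9% lower by that test. All 7 tested of 9 fibroblast markers were higher, with sums of 1930 to 1990 and 2790 to 3040. The sums were 5.73 to 8.34 and 9.71 to 11.7 for 5 leukocyte markers, of which 2 were higher, and 1.95 to 2.07 and 6.48 to 8.42 for 4 endothelial markers, of which 2 were higher. Single markers within these lists differed. The highest epithelial means after butyrate were those of KRT8 and KRT19, which moved from 1380 to 1970 and from 492 to 1950. KRT5 was lower, from 401 to 356, and CDH1 and DSP, with 49.8 and 48.9 and with 7.96 and 7.9, were neither higher nor lower by that test. PTPRC of leukocytes and CDH5 of endothelium were listed at 0 in all 6 cultures. From control to butyrate, the mean FPKM of the leukocyte genes CD14 and CD74 moved from 5.57 to 6.8 and from 0.754 to 2.64. CD14 was not higher by that test. The means of the endothelial genes PECAM1 and VWF moved from 1.54 to 3.95 and from 0.456 to 3.31. Among the fibroblast genes, COL1A1 moved from 1150 to 1940. Control means of COL1A2, COL3A1, THY1 and DCN were 459, 313, 21.5 and 6.9. Those of PDGFRA, LUM, PDGFRB and FAP were 0.306, 0.149, 0.0203 and 0.015. The proliferation genes MKI67, TOP2A and PCNA fell with log2 fold changes of -4.37, -4.26 and -2.95. The part that these shifts have in the results for the 10 genes was not tested.

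All 10 genes were lower after butyrate, and the size of the fall differed widely between them. Here "fell" and "rose" stand for a Benjamini-Hochberg (BH) adjusted p from limma under 0.05 over all tested genes, and a DEG for a Bonferroni-adjusted p under 0.05 with a log2 fold change beyond 2, the thresholds of the study. With the first rule 10 of 10 fell, where 25.9% of all tested genes fell. With the second, CDK1, AURKA, PLK1, PLK4, NEK2 and CDC25B were downregulated DEGs, 6 of 10, where 1.51% of all tested genes were. In each of the 10, every butyrate value lay below every control value, which held for 28.9% of the tested genes, and the reverse order, found in 36.1% of them, was found in 0 of the 10. Their median log2 fold change was -2.84, whereas the median over all tested genes was 0.104. Added together, the FPKM of the 10 genes was 174 to 182 in control and 20.4 to 25.9 after butyrate.

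**Figure D1:**
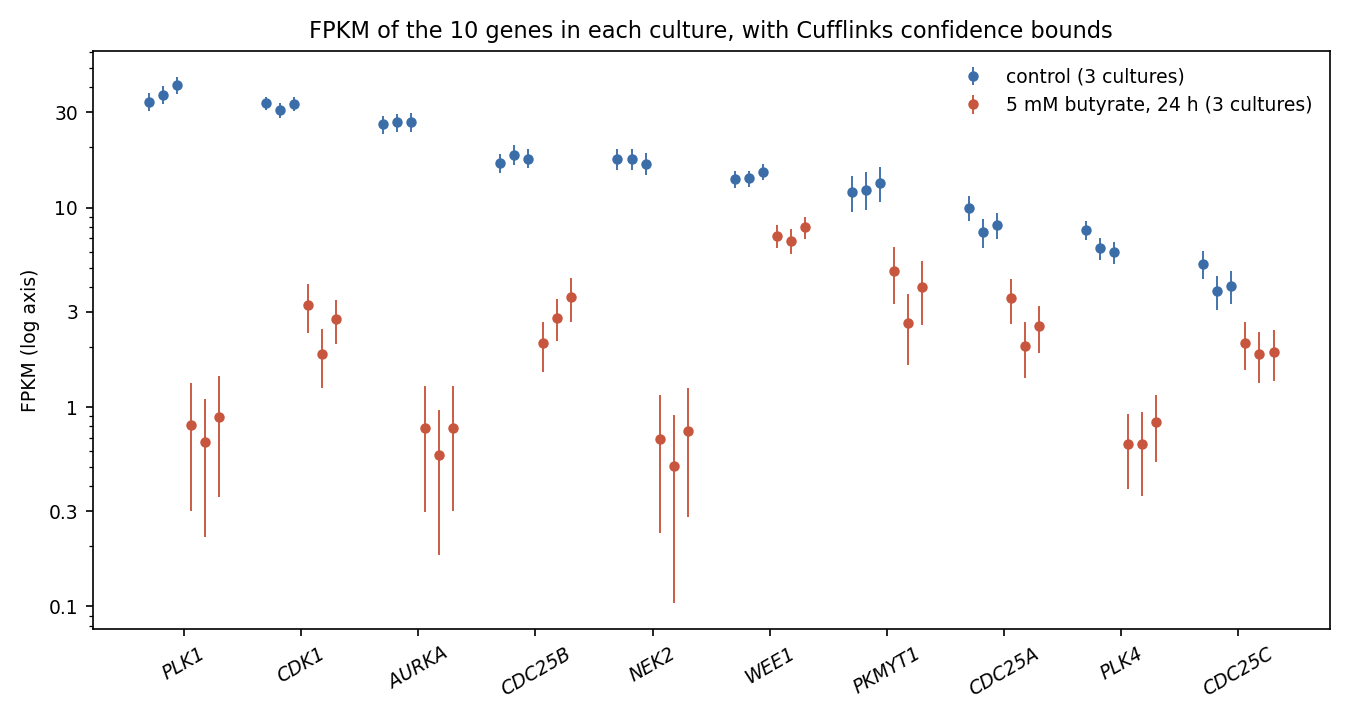
FPKM of the 10 genes on a log axis, ordered by control level, with 3 control cultures and 3 butyrate cultures each (points) and the confidence bounds that Cufflinks gave for every value (bars). PLK1, AURKA, NEK2 and PLK4 dropped to values below 1, while WEE1 stayed between 6.83 and 7.95.

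CDK1, the kinase at the centre of the switch, lies on chromosome 28 from 16620118 to 16670633 (build UMD3.1 by the submitters' processing notes, positions as the files give them). The 3 control cultures, in the order of their replicate numbers, had an FPKM of 33.3, 30.9 and 33.2, and the 3 butyrate cultures 3.25, 1.85 and 2.76. The controls were tightly grouped, and the lowest of them was 9.51 times the highest butyrate value. The mean went from 32.5 ± 1.39 (SD, n = 3) to 2.62 ± 0.708 (SD, n = 3), or 8.06% of control, with a log2 fold change of -3.62 ± 0.18 (SE, limma, Bonferroni-adjusted p = 0.000396). Its call as a DEG was lost without the mean-variance trend (limma, Bonferroni-adjusted p = 0.0994) and without the filter on low values (limma, Bonferroni-adjusted p = 0.894). Neither setting can alter the fold change of a gene. A pseudogene entry, LOC512594, lies inside the CDK1 locus but had a mean FPKM of only 0.0542 in control and 0.0822 after butyrate.

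The largest falls were those of PLK1 and AURKA, which take the positions 13 and 18 among the falls of all 15813 tested genes. PLK1, Polo-like kinase 1, lies on chromosome 25 from 21587068 to 21597613. It was the most abundant of the 10 transcripts in control, with an FPKM of 34.0, 36.7 and 41.1, and had 0.810, 0.664 and 0.890 after butyrate. The 2 groups were thus separated by more than the whole spread within either, and the mean fell from 37.3 ± 3.54 (SD, n = 3) to 0.788 ± 0.115 (SD, n = 3), or 2.11% of control. Its log2 fold change was -5.40 ± 0.14 (SE, limma, Bonferroni-adjusted p = 1.51e-06). The annotated end of PLK1 overlaps the start of the ERN2 entry at 21597560, and ERN2 moved the other way, from a mean FPKM of 0.122 to 1.05.

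AURKA encodes Aurora A, the kinase that activates PLK1, and lies on chromosome 13 from 60091525 to 60107188. Its FPKM was 26.1, 26.7 and 26.9 in control and 0.784, 0.575 and 0.787 after butyrate. The control values were the least variable of the 10 genes, with a coefficient of variation of 1.53%, and no butyrate value reached 1. The mean fell from 26.5 ± 0.407 (SD, n = 3) to 0.716 ± 0.122 (SD, n = 3), at a log2 fold change of -5.04 ± 0.14 (SE, limma, Bonferroni-adjusted p = 3.72e-06).

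NEK2, the kinase of centrosome separation, lies on chromosome 16 from 73674451 to 73687038. Its FPKM was 17.5, 17.5 and 16.6 in control and 0.694, 0.508 and 0.759 after butyrate. The lowest control was 21.9 times the highest butyrate value, and the butyrate mean of 0.654 ± 0.130 (SD, n = 3) was the lowest of the 10 genes. The log2 fold change was -4.54 ± 0.16 (SE, limma, Bonferroni-adjusted p = 2.58e-05).

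PLK4, the centriole kinase, lies on chromosome 17 from 30185747 to 30202777, and its FPKM was 7.72, 6.24 and 5.97 in control and 0.656, 0.649 and 0.841 after butyrate. Control replicate 1 stood above the other controls, and the groups did not overlap. PLK4 went from a mean of 6.64 ± 0.938 (SD, n = 3) to 0.716 ± 0.109 (SD, n = 3), or 10.8% of control, with a log2 fold change of -3.05 ± 0.19 (SE, limma, Bonferroni-adjusted p = 0.0019). The DEG call was lost without the filter on low values (limma, Bonferroni-adjusted p = 0.37).

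The kinases that restrain CDK1, WEE1 and PKMYT1, fell less than CDK1, PLK1, AURKA, NEK2 and PLK4. PKMYT1, with a log2 fold change of -1.73, did not fall less than CDC25A (-1.66) or CDC25C (-1.11). WEE1, on chromosome 15 from 43668443 to 43682433, had an FPKM of 13.9, 14.0 and 15.1 in control and 7.23, 6.83 and 7.95 after butyrate. The lowest control was 1.75 times the highest butyrate value, the narrowest gap of the 10 genes. Its mean went from 14.3 ± 0.666 (SD, n = 3) to 7.34 ± 0.569 (SD, n = 3), or 51.2% of control, and the log2 fold change of -0.96 ± 0.10 was the smallest of the 10 (SE, limma, BH-adjusted p = 4e-05, Bonferroni-adjusted p = 0.0921).

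PKMYT1, on chromosome 25 from 2382066 to 2393263, had an FPKM of 12.0, 12.3 and 13.3 in control and 4.83, 2.65 and 3.98 after butyrate. Butyrate replicate 2 was the lowest and the butyrate values were less alike than the controls, with coefficients of variation of 28.7% and 5.67%. The mean fell from 12.5 ± 0.711 (SD, n = 3) to 3.82 ± 1.10 (SD, n = 3), or 30.5% of control. Its log2 fold change was -1.73 ± 0.20 (SE, limma, BH-adjusted p = 9.52e-05, Bonferroni-adjusted p = 0.28).

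Of the phosphatases that release CDK1, CDC25B fell most. CDC25B, thought to start the activation of CDK1 at the centrosome, lies on chromosome 13 from 51853306 to 51863562. Its FPKM was 16.8, 18.4 and 17.6 in control and 2.09, 2.81 and 3.55 after butyrate. The groups were well apart, and the mean went from 17.6 ± 0.815 (SD, n = 3) to 2.82 ± 0.732 (SD, n = 3), or 16.0% of control. CDC25B had a log2 fold change of -2.63 ± 0.18 (SE, limma, Bonferroni-adjusted p = 0.00419). The DEG call did not withstand the loss of any control culture, with a Bonferroni-adjusted p from limma between 0.0631 and 0.075. It was also lost without butyrate replicate 2 (limma, Bonferroni-adjusted p = 0.146), without the trend (limma, Bonferroni-adjusted p = 0.374) and without the filter (limma, Bonferroni-adjusted p = 1).

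CDC25A, which acts on the S phase kinases as well as on CDK1, lies on chromosome 22 from 52242084 to 52265512. Its FPKM was 9.98, 7.53 and 8.15 in control and 3.50, 2.02 and 2.54 after butyrate. Replicate 1 was the highest in both groups, and the lowest control was 2.15 times the highest butyrate value. The mean went from 8.55 ± 1.27 (SD, n = 3) to 2.69 ± 0.748 (SD, n = 3), or 31.4% of control, with a log2 fold change of -1.66 ± 0.21 (SE, limma, BH-adjusted p = 0.000153, Bonferroni-adjusted p = 0.51).

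CDC25C, the phosphatase that PLK1 activates, lies on chromosome 7 from 51313469 to 51344320. It was the least abundant of the 10 in control, with an FPKM of 5.21, 3.81 and 4.03, and had 2.10, 1.84 and 1.88 after butyrate. Here too replicate 1 was the highest of each group, and the groups stayed apart by a factor of 1.82. The mean went from 4.35 ± 0.753 (SD, n = 3) to 1.94 ± 0.136 (SD, n = 3), or 44.6% of control, and the log2 fold change was -1.11 ± 0.17 (SE, limma, BH-adjusted p = 0.000534, Bonferroni-adjusted p = 1).

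The precision of the low values was limited. Cufflinks gives a confidence interval for each FPKM, and if its bounds lie 2 standard deviations from the value, PLK1 rested on about 371 to 419 effective fragments per control culture and on 9 to 11 per butyrate culture. The corresponding numbers were 560 to 650 and 37 to 64 for CDK1 and 446 to 473 and 196 to 241 for WEE1. For NEK2 they were 255 to 264 and 6 to 10. These numbers are approximate. By the Cufflinks bounds, a fold change of a gene with so few fragments after butyrate is less certain than one of WEE1 or CDC25C. The SE from limma, taken from the spread between cultures, does not show this for CDC25C, with 0.14 for PLK1 and 0.17 for CDC25C. In all 10 genes, the highest upper bound among the butyrate cultures still lay below the lowest lower bound among the controls. The share of all tested genes with bounds apart in this way was not counted, so the 10 genes are not set apart by it. None of the 60 values had a lower bound of 0.

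**Figure D2:**
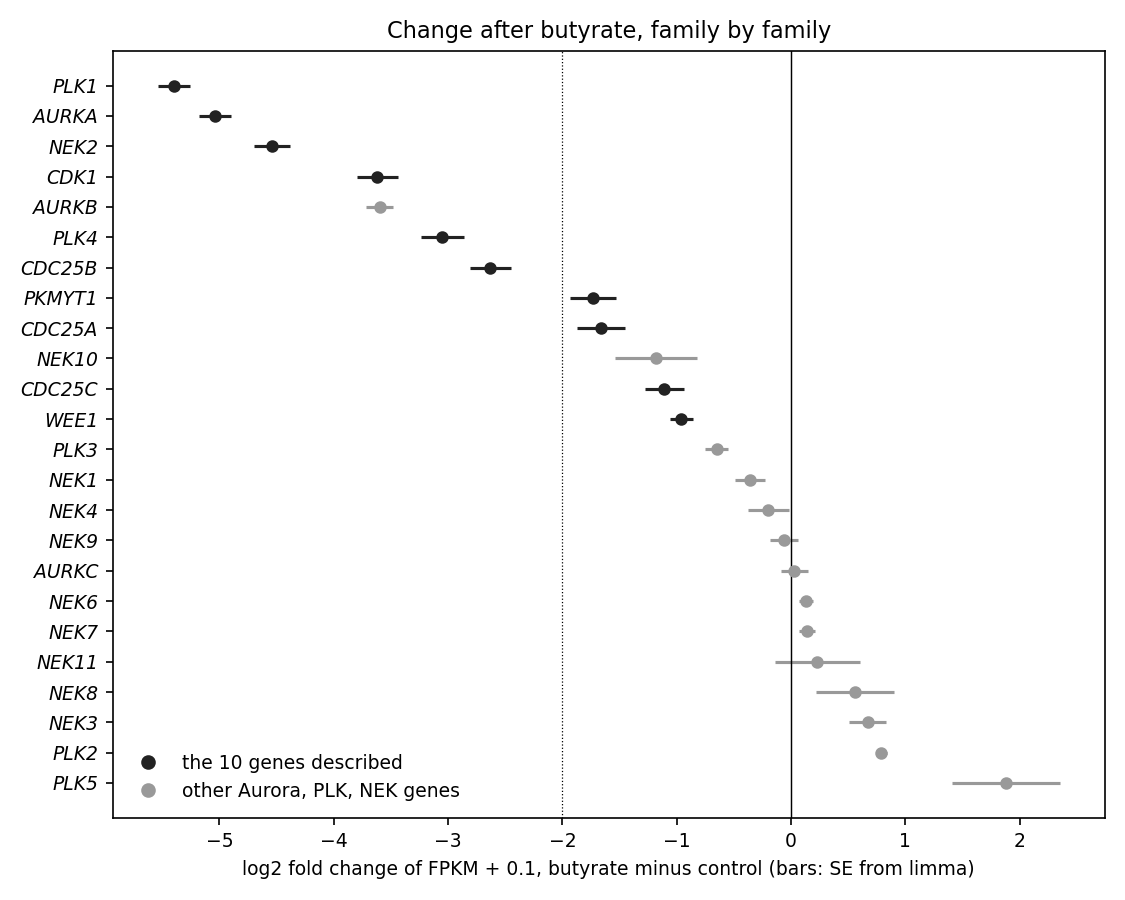
Log2 fold change of FPKM + 0.1, butyrate minus control, with its standard error from limma (bars), for the 10 genes (black) and 14 relatives of the Aurora, Polo-like and NEK families (grey). The dotted line marks a log2 fold change of -2, and of the relatives only AURKB lies beyond it.

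The order of levels was not the same in the 2 groups. In control it ran PLK1, CDK1, AURKA, CDC25B, NEK2, WEE1, PKMYT1, CDC25A, PLK4 and CDC25C, from a mean FPKM of 37.3 to 4.35, a range of 8.57-fold. Of the 9 pairs of neighbours in that order, CDC25B and NEK2 overlapped in their values, as did CDC25A and PLK4, and the other pairs did not. After butyrate WEE1 stood first, with PKMYT1, CDC25B, CDC25A, CDK1, CDC25C, PLK1, AURKA, PLK4 and NEK2 behind it, from 7.34 to 0.654. In that order 7 of the 9 pairs of neighbours overlapped, and the pairs that did not were WEE1 over PKMYT1 and CDC25C over PLK1. The butyrate values thus fell into a first place for WEE1, a middle of 5 genes between 1.84 and 4.83 and a low group of PLK1, AURKA, PLK4 and NEK2 between 0.508 and 0.890. These steps hold for the FPKM values only, since the Cufflinks bounds overlap. The lowest bound of WEE1 was 5.85 and the highest of PKMYT1 6.36, and for CDC25C and PLK1 they were 1.32 and 1.43. The control order has the same limit, since the bounds of its neighbours overlapped too, as with 30.5 for PLK1 and 35.9 for CDK1. Only AURKA over CDC25B was clear of it in control, with 23.3 and 20.5.

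Among the butyrate cultures, replicate 2 held the lowest value of 9 of the 10 genes, CDC25B being the exception, and replicate 1 or 3 held the highest. Some gaps were small, as for PLK4 with 0.649 against 0.656 and CDC25C with 1.84 against 1.88. The share of all tested genes that were lowest in this culture was not counted, so the 9 genes do not set it apart. In control the lowest values were spread over replicate 1 with 5 genes, replicate 2 with 3 and replicate 3 with 2. Summed FPKM over the whole library did not set butyrate replicate 2 apart, with 624381 against 619401 and 629037.

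Ratios within a culture set the parts of the switch against each other, and the scaling of a library hardly enters them. For 12 chosen pairs, the log2 ratio of FPKM + 0.1 was taken in each culture and compared by an exact permutation test. With 3 cultures against 3 this test cannot give a two-sided p below 0.1, and 10 of the 12 pairs reached that value (BH-adjusted p over the 12 pairs = 0.12). A pair reaches it whenever its ratios in the 2 groups do not overlap, and the share of other gene pairs that do so was not counted. No pair can therefore pass at 0.05, and the values are given with their spread.

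The log2 ratio of CDK1 to WEE1 was 1.26, 1.13 and 1.13 in control and -1.13, -1.83 and -1.50 after butyrate. Each control culture thus held more CDK1 than WEE1 transcript per length and each butyrate culture less, and the ratio on a linear scale went from 2.26 to 0.357. PLK1 against WEE1 had the largest difference of the 12 pairs, from a log2 ratio of 1.37 ± 0.0763 (SD, n = 3) to -3.07 ± 0.0952 (SD, n = 3). PLK1 stood above PLK4 by 2.47 ± 0.321 (SD, n = 3) on the log2 scale in control and by 0.12 ± 0.128 (SD, n = 3) after butyrate. The 2 kinases were thus 5.56-fold apart in control and 1.09-fold apart after butyrate. Equal levels are not established, since the Cufflinks bounds after butyrate ran from 0.223 to 1.43 for PLK1 and from 0.358 to 1.15 for PLK4.

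Of the 3 phosphatases, CDC25B alone went from above WEE1 to below it. Its log2 ratio to WEE1 was 0.27, 0.39 and 0.22 in control and -1.75, -1.25 and -1.14 after butyrate, and the linear ratio of CDC25B to WEE1 went from 1.23 to 0.384. The ratio of CDC25A to WEE1 was 0.596 in control and 0.367 after butyrate, a log2 difference of -0.70 with no overlap. For CDC25C to WEE1 the log2 difference was -0.16, with overlapping groups (exact permutation test, p = 0.6, pooled SD 0.216), and for CDC25A to PKMYT1 it was 0.07 (exact permutation test, p = 0.8, pooled SD 0.204). The first of these had a difference of 0.03 with a pseudocount of 1, and the second one of -0.01 without control replicate 2, and neither p-value shows that a ratio stayed the same.

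The difference in the log2 ratio of CDC25B to PKMYT1, butyrate minus control, was -0.90, or -0.53 without butyrate replicate 1. For CDC25C to PKMYT1 it was 0.61, and the nearest control and butyrate values of this ratio, -1.18 and -1.17, almost met. Within the CDC25 family, CDC25B stood 4.01-fold over CDC25C in control and 1.40-fold after butyrate. CDC25B was 2.06-fold over CDC25A in control and 1.05-fold after butyrate, where the log2 difference of -0.97 became -0.58 without butyrate replicate 1. WEE1 against PKMYT1 had log2 ratios of 0.22, 0.18 and 0.18 in control and 0.57, 1.33 and 0.98 after butyrate.

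**Figure D3:**
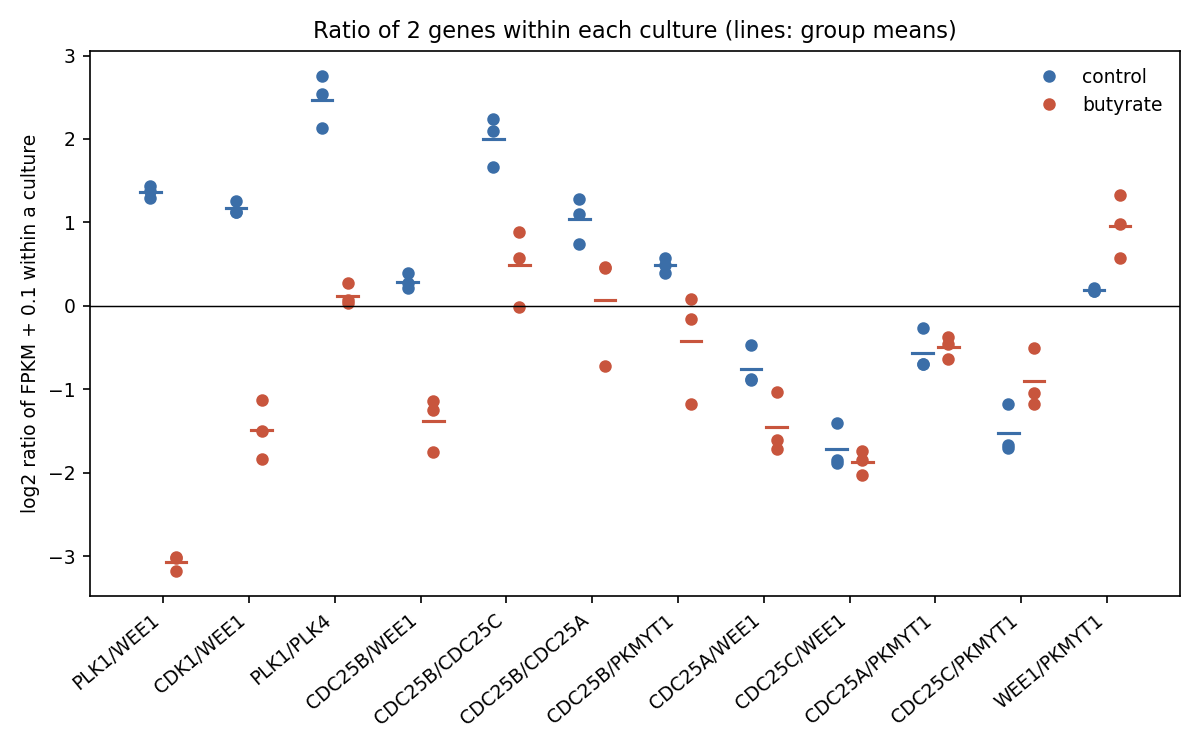
Log2 ratio of FPKM + 0.1 of 2 genes within each culture for 12 pairs, with control cultures in blue, butyrate cultures in red and lines at the group means. PLK1/WEE1, CDK1/WEE1 and CDC25B/WEE1 lay above 0 in every control culture and below 0 in every butyrate culture.

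Of 16 other Aurora, Polo-like, NEK and WEE genes, 14 were tested, 4 fell (28.6%), 3 rose and 7 did not pass. The share that fell lies near the 25.9% of all tested genes, of which 32.5% rose. The median log2 fold change of these relatives was 0.08. AURKB, the kinase of the chromosomal passenger complex, was the only DEG among them, with an FPKM of 23.2, 23.9 and 25.0 in control and 1.90, 1.65 and 2.13 after butyrate and a log2 fold change of -3.60 (limma, Bonferroni-adjusted p = 1.22e-05). AURKC, known chiefly from germ cells, had 9.34 ± 0.741 (SD, n = 3) and 9.61 ± 1.29 (SD, n = 3), and the sign of its log2 fold change of 0.03 turned when control replicate 2 or butyrate replicate 3 was left out.

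Among the Polo-like kinases, the stress-responsive PLK2 rose from 244, 235 and 227 to 382, 421 and 418, with a log2 fold change of 0.79 (limma, BH-adjusted p = 2.7e-06). PLK3, also a stress-responsive kinase, fell from 18.8 ± 1.13 (SD, n = 3) to 12.0 ± 1.23 (SD, n = 3), at a log2 fold change of -0.65. PLK5 was listed at 0, 0.144 and 0 in control and at 0.376, 0.433 and 0.379 after butyrate, near the floor of the data, and its BH-adjusted p of 0.00843 from limma became 0.0882 with quantile normalization.

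In the NEK family, NEK3 rose, with a log2 fold change of 0.67, and this call was lost only without the filter on low values (limma, BH-adjusted p = 0.0628). NEK10 and NEK1 had log2 fold changes of -1.18 and -0.36 (limma, BH-adjusted p = 0.0208 and 0.0395). Neither passed without the filter. NEK1 did not pass when rescaled to TPM (-0.24), with the replicate block or with any culture but butyrate replicate 2 left out, and NEK10 did not pass without control replicate 2 or 3 or without butyrate replicate 1 or 2. The number of relatives that fell was therefore 2 without control replicate 2, control replicate 3 or butyrate replicate 1, and 3 without any of the other cultures. NEK4, NEK6, NEK7, NEK8, NEK9 and NEK11 had log2 fold changes of -0.20, 0.13, 0.14, 0.56, -0.06 and 0.23 and did not pass. NEK6 and NEK7, which act with NEK9 in the mitotic spindle, passed as higher when rescaled to TPM and with quantile normalization, and the sign turned for NEK9 with TPM or without control replicate 1 and for NEK11 with quantile normalization. NEK5 and WEE2 were too low to be tested.

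Of 18 other cyclin-dependent kinases tested, 6 fell, 6 rose and 6 did not pass, shares of 33.3% each that lie near those of all tested genes (25.9% fell and 32.5% rose), with log2 fold changes from -0.92 to 1.34 and none a DEG. CDK2, the S phase kinase, went from 14.1 ± 0.587 (SD, n = 3) to 7.43 ± 0.750 (SD, n = 3), a log2 fold change of -0.92, and CDK4 of G1 fell by 0.62 on that scale. CDK12, a transcriptional kinase, fell by 0.70, and CDK3 had -0.81, a call lost without the filter, control replicate 2 or butyrate replicate 1. CDK18, CDK14 and CDK20 rose by 1.34, 1.18 and 0.82, and CDK19 had 0.57 with a BH-adjusted p of 0.0473 from limma that held only without butyrate replicate 3 among the fits with a culture left out.

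**Figure D4:**
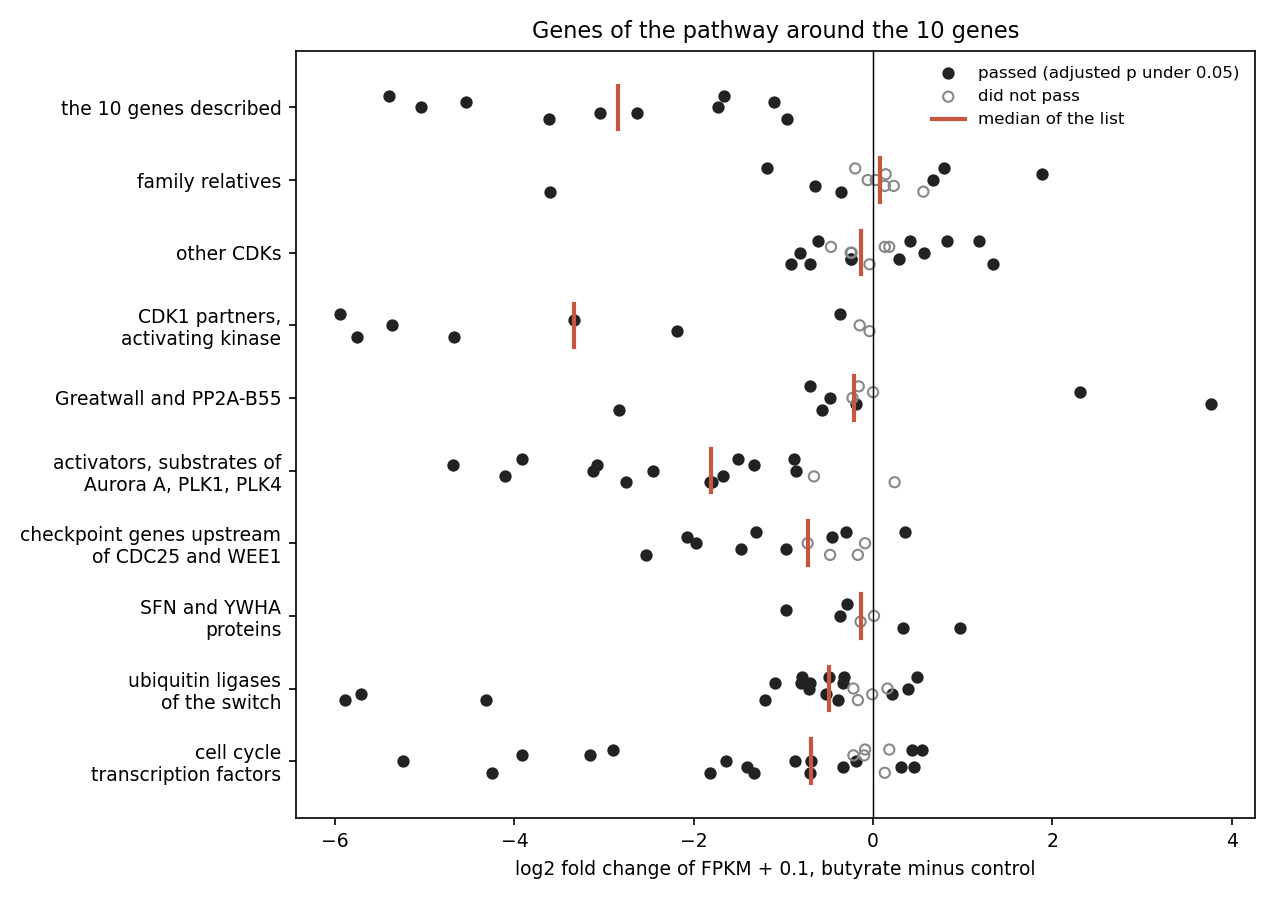
Log2 fold change of FPKM + 0.1, butyrate minus control, for the 10 genes and 9 lists of related genes, where filled points passed a BH-adjusted p of 0.05 in limma, open points did not and the red line is the median of a list. The medians of the 10 genes and of the CDK1 partners, -2.84 and -3.34, lie furthest to the left.

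Transcripts of the proteins that bind CDK1 fell too. Of 9 tested partners and subunits of the activating kinase, 7 fell, 5 of them as DEGs, none rose and the median log2 fold change was -3.34. Over all tested genes 25.9% fell, 1.51% as DEGs, and 32.5% rose. Cyclin B1 (CCNB1) went from 82.5 ± 0.823 (SD, n = 3) to 1.92 ± 0.252 (SD, n = 3), a log2 fold change of -5.37, and CCNB2 and CCNA2 were left at 1.56% and 1.66% of their control means. CKS2, a small subunit that docks substrates, was left at 3.94%. Of the 3 subunits of the kinase that activates CDKs, MNAT1 fell by 0.37 on the log2 scale, while CDK7 and its cyclin CCNH had log2 fold changes of -0.04 and -0.15 and did not pass, and CDK7 turned sign with TPM or without control replicate 3.

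Changes were mixed in the module of the Greatwall kinase and PP2A-B55, the phosphatase that it inhibits. Of 10 tested genes of the Greatwall and PP2A-B55 module, 5 fell and 2 rose, with a median log2 fold change of -0.21. The shares over all tested genes were 25.9% and 32.5%. MASTL, the Greatwall kinase that inhibits PP2A-B55 in mitosis, went from 3.72 ± 0.398 (SD, n = 3) to 0.497 ± 0.346 (SD, n = 3), a log2 fold change of -2.83, and its substrate ARPP19 fell by 0.70. PPP2R1A and PPP2R1B, scaffold subunits, fell by 0.57 and 0.48. PPP2R2B, a B55 subunit best known from neurons, was an upregulated DEG, a call that 2.46% of the tested genes received, with 0.398, 0.197 and 0.357 in control and 5.73, 5.54 and 5.17 after butyrate and a log2 fold change of 3.77. PPP2R2C was listed at 0 in the 3 control cultures and at 0.284, 0.611 and 0.348 after butyrate.

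Activators and substrates of Aurora A, PLK1 and PLK4 were lower as a list. Of 16 tested genes, 14 fell, 6 as DEGs, and none rose, with a median log2 fold change of -1.81. For comparison, 25.9% of all tested genes fell, 1.51% as DEGs, and 32.5% rose. TPX2, which activates Aurora A on spindle microtubules, was left at 11.2% of control, with a log2 fold change of -3.12, and BORA, with which Aurora A activates PLK1, at 27.6%, with -1.80. TACC3, KIF11 and GTSE1 had log2 fold changes of -4.68, -4.10 and -3.92. Among the centriole genes of the list, STIL, SASS6 and CEP152 fell by 2.45, 1.51 and 1.33 on the log2 scale. CEP192 and CEP63 had -0.66 and 0.24 and were the 2 genes of the list that did not pass, although CEP192 passed as lower with quantile normalization, where CEP63 turned sign.

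Upstream of CDC25 and WEE1, 8 of 13 tested checkpoint genes fell and 1 rose, where 25.9% and 32.5% of all tested genes did. No checkpoint gene was a DEG, and the median log2 fold change was -0.73. CHEK1, the kinase that restrains the CDC25 phosphatases after DNA damage, fell by 0.97, to 50.3% of control, close to the fall of WEE1. CHEK2 was left at 21.8%, CLSPN, a mediator of CHEK1 activation, at 11.4%, TOPBP1 at 24.4% and RAD9A at 35.0%. RAD17 was the gene that rose, by 0.36 (limma, BH-adjusted p = 0.0251), and it did not pass with the replicate block (limma, BH-adjusted p = 0.0531), without the filter or without control replicate 3, butyrate replicate 2 or butyrate replicate 3. Of 7 genes for 14-3-3 proteins, which hold phosphorylated CDC25 in the cytoplasm, 3 fell and 2 rose, against 25.9% and 32.5% of all tested genes. SFN, the epithelial form called 14-3-3 sigma, rose from 84.9 ± 0.772 (SD, n = 3) to 166 ± 0.495 (SD, n = 3), a log2 fold change of 0.97, YWHAQ rose by 0.33 and YWHAH fell by 0.97. YWHAE and YWHAZ fell by 0.29 and 0.37 but did not pass with quantile normalization (limma, BH-adjusted p = 0.081 and 0.114).

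Among the ubiquitin ligases that end mitosis or degrade its regulators, the largest falls were those of CDC20, UBE2C and FBXO5. Of 21 tested genes, 14 fell and 3 rose, where 25.9% and 32.5% of all tested genes did, with a median log2 fold change of -0.49. CDC20, which directs the anaphase-promoting complex in mitosis, was left at 1.59% of control and UBE2C, its ubiquitin-conjugating enzyme, at 1.91%. FBXO5, an inhibitor of the complex, fell by 4.32 on the log2 scale and the core subunit CDC23 by 1.21. FZR1, which directs the same complex in G1, had 27.4 ± 2.43 (SD, n = 3) and 30.7 ± 2.49 (SD, n = 3) and did not pass, although it did as higher with TPM and with quantile normalization. Parts of the SCF ligase that degrades WEE1 and CDC25A moved in both directions. Its adaptor SKP1 and the F-box protein FBXW11 rose by 0.49 and 0.39, its scaffold CUL1 and its RING subunit RBX1 fell by 0.53 and 0.70, and the F-box protein BTRC had -0.17 and did not pass. ANAPC2 has 2 entries, of which the more abundant rose by 0.21 and did not pass without control replicate 1 or 3, without butyrate replicate 2 or 3, without the filter or the trend, or with the replicate block, and reads may be split between them.

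Among the transcription factors and regulators of the cell cycle, more genes fell than rose. Of 23 tested, 14 fell, 3 of them as DEGs, and 4 rose, with a median log2 fold change of -0.69. Among all tested genes 25.9% fell, 1.51% as DEGs, and 32.5% rose. FOXM1 and MYBL2, activators of G2 and mitotic genes, were left at 2.43% and 2.51% of control, with log2 fold changes of -4.25 and -5.24. E2F8 and E2F1 had log2 fold changes of -3.92 and -3.16. RB1 had 0.13, did not pass and turned sign with quantile normalization. CDKN1A, the inhibitor p21, rose from 210 ± 2.93 (SD, n = 3) to 284 ± 8.78 (SD, n = 3), a log2 fold change of 0.43, and E2F5, TFDP2 and NFYA rose by 0.54, 0.46 and 0.31. Without the filter neither TFDP2 nor NFYA passed. TFDP2 did not pass without the trend, control replicate 2, control replicate 3 or butyrate replicate 3, and NFYA did not with quantile normalization or without control replicate 1, control replicate 3, butyrate replicate 1 or butyrate replicate 2, so that 2 genes were left that rose without control replicate 3.

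The 10 genes lie on 8 chromosomes, with AURKA and CDC25B both on chromosome 13 and PLK1 and PKMYT1 both on chromosome 25. Genes that overlap one of the 10, such as ERN2 at the end of PLK1, were left aside. Of the 40 nearest tested genes that do not overlap, 2 on each side of each gene, 11 fell (27.5%), 12 rose and 17 did not pass. Their median log2 fold change was 0.06, and these shares lie near the 25.9% and 32.5% of all tested genes. CSTF1, which ends 0.125 kb before AURKA, had a log2 fold change of -0.65, and PAQR4, at 0.006 kb from PKMYT1, had -0.32. DCTN5, 0.652 kb from PLK1, had 0.00 and did not pass, nor did SLBP2, 0.158 kb from CDC25C, with -0.42. These 4 are the neighbours less than 1 kb away, a limit chosen after their values were seen. The single DEG among the 40 was TNFRSF12A, 44.8 kb from PKMYT1, with -2.34. Of all tested genes, 1.51% were downregulated DEGs and 2.46% upregulated DEGs.

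The genes most like CDK1 over the 6 cultures were named by the root mean square difference of log2(FPKM + 0.1), each taken from its own control mean, among 12078 other genes whose mean FPKM was 1 or more. ASPM, a spindle pole protein, was closest with 0.121, followed by RECQL4, CKAP2L, LOC100848433 and MCM2 with 0.126, 0.132, 0.142 and 0.157. LOC100848433 also shared the level of CDK1, with an FPKM of 33.4, 32.0 and 33.2 in control and 2.89, 2.19 and 3.23 after butyrate. Of the other genes described here, PLK4 came nearest, in position 75 with 0.474, and WEE1 was furthest, in position 1151 with 1.89. This is a description over 6 cultures that share 1 treatment contrast.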

How the data were processed

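RNA from 3 butyrate and 3 control REPC cultures was compared. Per the labels and the study's methods, the authors trimmed reads with Trim Galore 0.4.1, aligned them with STAR (UMD3.1 in the submitters' processing notes), kept uniquely mapped reads and deposited gene-level FPKM with confidence bounds from Cufflinks, 1 table per culture. Versions of STAR and Cufflinks are not given in the sources used here, nor is strand, so reads of overlapping genes cannot be told apart. Read depth is not in the tables.

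Tables were joined by locus. TNC and FOSL2, with failed estimates, were left out. Chromosomes were assigned from the sequence most genes of each RefSeq accession lie on in ARS-UCD2.0, which was 90.5% or more of matched genes. limma 3.58.1 in R 4.3.3 was fitted with a trend on log2(FPKM + 0.1), which understates changes of low genes, over the genes whose mean FPKM reached 0.1, and was tested on simulated data. No count test was used, since FPKM do not hold counts.

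The members, lists, pairs and tests were chosen with earlier results of these data known. Named outside the 10 genes were all tested relatives, up to 4 genes per list and direction with the largest changes, a fixed set of regulators, cell type markers and the 5 genes closest to CDK1. CDK7, CCNH, MNAT1, CUL1, RBX1, BTRC, CEP192, CEP63, neighbours and overlapping genes were named after their values were seen. Alternatives were other pseudocounts, filters and scalings, no trend, a smaller fold threshold, a replicate block and each culture left out.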

Additional observations from a re-analysis of the deposited data

How the results depend on the processing

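All 10 genes kept their direction and a BH-adjusted p from limma under 0.05 in the 14 alternative fits. The number of downregulated DEGs among them was 3 instead of 6 without a filter on low values, 4 without the trend, 5 to 6 with a culture left out and 6 otherwise. Rescaling to TPM moved the median log2 fold change of all genes from 0.104 to 0.225 and quantile normalization moved it to -0.045. With TPM, 5 relatives rose. With quantile normalization, 1 gene for a 14-3-3 protein fell and 5 ubiquitin ligase genes rose. Without a filter, 2 relatives fell, 0 checkpoint genes rose and 2 transcription factors rose. Where the filter was a mean FPKM of 1, 1 gene of the PP2A module rose. With a culture left out, 2 to 3 relatives fell, 0 to 1 checkpoint genes rose and 2 to 3 transcription factors rose. The difference in the log2 ratio of PLK1 to WEE1 was -4.59 with a pseudocount of 0.01 and -3.54 with 1, where that of CDC25B to WEE1 was -1.42 and that of CDK1 to WEE1 -2.35. Same-numbered cultures were not paired, since the correlations of their deviations from the group means were 0.0228, -0.00431 and 0.00177. With the replicate block, the 10 genes kept their calls, DEG calls over all genes were 183 lower and 226 higher against 238 and 389, and 0 checkpoint genes rose. Those calls were 50 and 47 without a filter, 141 and 213 without the trend, and 163 to 201 and 156 to 337 with a culture left out. Few fragments after butyrate limit the fold changes of PLK1, AURKA and NEK2.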
